A study of Homo sapiens with 6 samples.

Results

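Polycomb repressive complex genes were looked up among the H3K4me3 peak calls and the promoter tables of BE(2)-C neuroblastoma cells. They were the 10 genes EZH2, EZH1, EED, SUZ12, JARID2, RING1, RNF2, BMI1, CBX2 and CBX7, chosen by name from among 16500 distinct names in the 3 deposited files. The H3K4me3 library of cells given WDR5 siRNA-1 for 24 hours was set against that of cells given control siRNA for 24 hours. BE(2)-C is an established human neuroblastoma line with MYCN amplification, and WDR5 is a core subunit of the complexes that methylate lysine 4 of histone H3. N-Myc, the product of MYCN, was used by the authors to divide promoters into an N-Myc-binding table of 3254 and an N-Myc-non-binding table of 6331. Each siRNA had 1 H3K4me3 library, so no value below has a replicate error and no test across samples exists. A name is listed where the authors called a peak no more than 1 kb from its transcription start site (TSS), and calls came without heights, read numbers or depths.

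Polycomb proteins keep genes silent through 2 families of complexes. Polycomb repressive complex 2 (PRC2) places the repressive mark H3K27me3 on histone H3, and Polycomb repressive complex 1 (PRC1) ubiquitinates histone H2A and compacts chromatin. H3K4me3 and H3K27me3 mark active and Polycomb-silenced promoters, and both can lie on the same developmental promoter, a state called bivalent. In neuroblastoma, EZH2 and BMI1 are known for high expression and for roles in growth. The calls described here are about the promoters of the genes that encode the Polycomb machinery. They do not measure H3K27me3 or the binding of Polycomb proteins.

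Promoter sequences are shown for 3 members and for the read-through gene COMMD3-BMI1, because they hold the letters of a motif of the MYC or E2F factors. They come from RefSeq (GRCh38.p14) and run 5′ to 3′ in the direction of the gene, over the 250 bases before the start. The EZH2 line goes on past the start to the end of its motif. Capitals mark CACGTG, the E-box that MYC and MAX proteins recognise, and TTTCCCGC or TTTGGCGC, forms of the E2F site.
EZH2 (first of 2 starts), chr7:148884283-148884541, minus strand: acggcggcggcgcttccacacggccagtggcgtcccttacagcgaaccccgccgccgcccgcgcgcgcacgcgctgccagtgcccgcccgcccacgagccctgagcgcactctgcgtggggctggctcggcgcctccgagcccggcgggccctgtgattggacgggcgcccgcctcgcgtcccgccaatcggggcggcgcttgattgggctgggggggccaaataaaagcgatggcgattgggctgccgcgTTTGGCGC
SUZ12, chr17:31936757-31937006, plus strand: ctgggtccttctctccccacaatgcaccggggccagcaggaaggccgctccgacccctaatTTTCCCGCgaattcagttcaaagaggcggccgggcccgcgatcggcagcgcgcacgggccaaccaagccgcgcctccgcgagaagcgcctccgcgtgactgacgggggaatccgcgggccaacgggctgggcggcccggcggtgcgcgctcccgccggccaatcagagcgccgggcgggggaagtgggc
COMMD3-BMI1, chr10:22316138-22316387, plus strand: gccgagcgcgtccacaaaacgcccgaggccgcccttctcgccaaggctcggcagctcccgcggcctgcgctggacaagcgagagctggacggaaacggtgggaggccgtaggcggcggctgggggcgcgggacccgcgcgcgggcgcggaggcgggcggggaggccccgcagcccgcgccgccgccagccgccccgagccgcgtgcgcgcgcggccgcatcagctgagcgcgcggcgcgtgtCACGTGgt
BMI1 (first of 2 starts), chr10:22320849-22321098, plus strand: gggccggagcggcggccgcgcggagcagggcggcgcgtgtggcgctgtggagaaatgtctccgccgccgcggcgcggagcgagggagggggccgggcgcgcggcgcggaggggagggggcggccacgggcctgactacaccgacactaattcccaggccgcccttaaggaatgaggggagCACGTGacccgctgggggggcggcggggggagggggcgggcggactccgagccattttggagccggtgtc

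Of the 10 genes, 9 were listed under their own names, and all 9 were listed with WDR5 siRNA-1 as well as with control siRNA. No member was listed in only 1 library. Over all names, 11870 were listed with WDR5 siRNA-1, against 13618 with control siRNA. Names listed only with control siRNA made up 13.5% of the control names, and names listed only with WDR5 siRNA-1 made up 0.817% of the WDR5 siRNA-1 names. With 9 members, 0 control-only genes leaves a wide interval, since the exact Clopper-Pearson 95% interval over genes ran from 0 to 33.6% and so held the share of all names. This interval treats genes as independent draws and covers neither replicate nor library error. A name listed in both libraries has a call in each, and its H3K4me3 level may still differ between them.

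The PRC2 genes were all listed in both libraries. EZH2 encodes the main catalytic subunit of PRC2, and its promoter (hg19 TSS at chromosome 7, position 148581441) was in the N-Myc-binding table. EZH1, which encodes the other catalytic subunit and is known for expression in resting cells, was listed in both libraries and stood in neither promoter table. EED encodes the subunit that binds H3K27me3 and stimulates the enzyme, and it too was listed in both and in neither table. SUZ12, the scaffold subunit needed for a stable complex (hg19 TSS at chromosome 17, position 30264044), was listed in both and was in the N-Myc-binding table. JARID2, an accessory subunit that helps to recruit PRC2, was listed in both and was in neither table. In these calls the paralogues EZH2 and EZH1 therefore did not differ, whereas only EZH2 of the pair had an N-Myc class.

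The PRC1 genes gave the same calls, with BMI1 as a special case. RING1 and RNF2 encode the alternative ubiquitin ligases RING1A and RING1B, and both were listed in both libraries. RING1 (chromosome 6, position 33176286) was in the N-Myc-binding table and RNF2 (chromosome 1, position 185014551) in the non-binding table. CBX2 and CBX7 encode chromodomain subunits that read H3K27me3, and both were listed in both libraries. CBX7 (chromosome 22, position 39548538) was in the N-Myc-binding table and CBX2 (chromosome 17, position 77751977) in the non-binding table. Each pair of PRC1 paralogues was thus divided between the promoter tables while its peak calls were alike.

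BMI1, the PCGF subunit that stimulates the RING1B ligase, was in no list and no table under its own symbol, nor under any of 4 RefSeq synonyms. The files hold COMMD3-BMI1, the read-through transcript that joins the COMMD3 gene to BMI1. COMMD3-BMI1 was listed in both libraries and was in the non-binding table, with its hg19 TSS at chromosome 10, position 22605312. In RefSeq (GRCh38.p14) the start of COMMD3-BMI1 is shared with COMMD3 and lies 4.71 and 5.57 kb before the starts of BMI1. A window of 1 kb around the read-through start does not reach either of those starts. By the authors' 1 kb rule, the listing of COMMD3-BMI1 thus stands for a peak near the COMMD3 start. It gives no information on BMI1's own starts. The lists give names without peak positions, so the place of the peak could not be checked. No call under BMI1's own symbol was available.

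**Figure D1:**
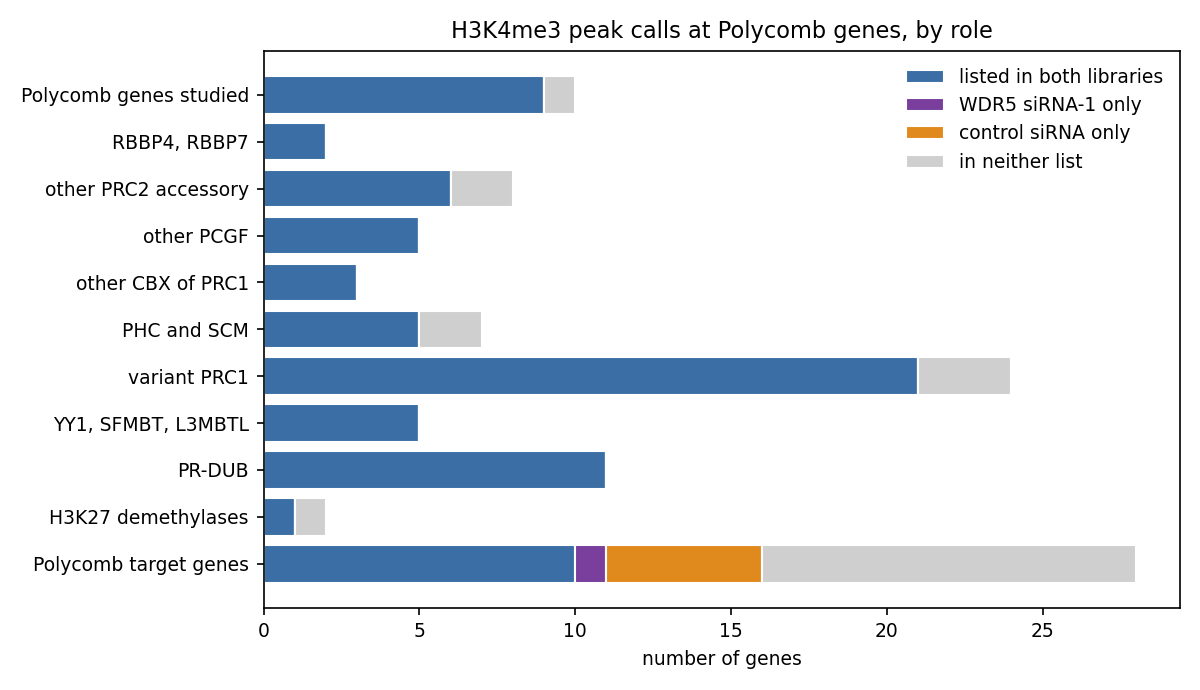
Number of genes (horizontal axis) in each Polycomb group (one bar per group), coloured by peak call in the single library of each siRNA. Of the 10 genes studied, 9 were listed in both libraries and BMI1 was in neither under its own name. Control-only names appear only in the bar of Polycomb target genes, where they number 5.

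Among the other genes of the Polycomb machinery, too, none was listed in only 1 library. Of 67 other subunit and partner genes, 59 were listed with control siRNA, and all 59 were also listed with WDR5 siRNA-1. The share of control-only genes was thus 0 of 59 (exact 95% interval over genes 0 to 6.06%), beside 13.5% of all control names. The 67 genes were taken from general knowledge by role. PRC2 partners listed in both libraries included RBBP4 and RBBP7, the histone-binding subunits, and AEBP2, MTF2, PHF19 and C17orf96, which are accessory subunits. All 5 other PCGF genes were listed in both, among them PCGF2, the closest relative of BMI1, and PCGF6. So were CBX6 and CBX8, further CBX genes of PRC1. The Polyhomeotic and SCM group had PHC1, PHC3, SCMH1, SCML1 and SCML2 listed in both, and PHC2 and SCML4 in neither list.

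WDR5 is itself a subunit of a variant PRC1, the PCGF6 complex that contains the E-box-binding pair MGA and MAX. WDR5, PCGF6, MGA, MAX, E2F6, TFDP1 and L3MBTL2, which all belong to that complex, were listed in both libraries. A peak at the WDR5 promoter does not measure how far the siRNA lowered WDR5. In the variant PRC1 group as a whole, 21 of 24 genes were listed in both, such as RYBP, KDM2B, BCOR and AUTS2. The remaining 3 of these, BCORL1, FBRS and CBX5, were in neither list. CBX5 was placed in this group by the list used here, and that it is a subunit was not established. All 11 genes around PR-DUB, the complex that removes the ubiquitin placed by PRC1, were listed in both, including BAP1, ASXL1, ASXL2 and ASXL3. Of the H3K27 demethylase genes, KDM6A was listed in both and KDM6B in neither. PHC2, SCML4, BCORL1 and CBX5 have a row in the authors' promoter tables under these symbols. They thus had no called peak under a name that the authors used. The other genes in neither list either had no called peak or carry another name in the authors' annotation.

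Among developmental genes that are known Polycomb targets, some were listed in only 1 library. Of 28 such genes, 10 were listed in both libraries, 1 only with WDR5 siRNA-1, 5 only with control siRNA and 12 in neither. The control-only genes were CDKN1C, which encodes a cyclin-dependent kinase inhibitor, the transcription factor genes PAX2, PAX3 and OLIG2, and BMP2, a growth factor gene. LHX2, a LIM-homeodomain factor gene, was listed only with WDR5 siRNA-1. CDKN2A and CDKN2B, the senescence genes that BMI1 and CBX7 are known to repress, were listed in both, as were GATA4, HAND1 and TBX3. Control-only genes were 33.3% of the 15 targets with a control peak (exact 95% interval over genes 11.8 to 61.6%), an interval that includes the 13.5% of all names. The difference between targets and machinery was not tested. PAX6, SOX17, NKX2-2 and FOXA2 were among the genes in neither list.

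N-Myc classes were available for 6 of the 9 listed members. The N-Myc-binding table held 4 of these 6, EZH2, SUZ12, RING1 and CBX7, and the non-binding table held RNF2 and CBX2. Among all control names with a promoter row, 45.7% were in the N-Myc-binding table, and among the other subunit genes with a control peak and a row the number was 19 of 33 (57.6%). Control-only names made up 4.18% of N-Myc-binding promoters with a control peak and 17.9% of non-binding ones. They made up 15.5% of control names in neither table, where EZH1, EED and JARID2 belong. The criterion for N-Myc binding was not stated in the labels or headers, so these classes are a description. With 6 genes, the share of 4 in 6 was given no test against that of all control names.

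The row order of the promoter tables, which their headers do not explain, placed the members among promoters listed in both libraries. Their titles speak of H3K4me3 quantification, but they came without values, so what the order stands for is unknown. In the N-Myc-binding table EZH2 was at row 82, 2.52% of the way down, between SS18L1 and HN1. RING1 held row 1479 (45.5%), between UBL3 and PSME4. SUZ12 held row 1652 (50.8%), between SYVN1 and IPO7. EZH2 was thus near the top while RING1 and SUZ12 stood in the middle of the table. CBX7 held row 2604 (80.0%), directly after PHF21A, and was the lowest of the 4. In the non-binding table CBX2 held row 434 (6.86%), between RBAK and CPD. RNF2 held row 750 (11.8%), between KREMEN2 and CAMTA2, and COMMD3-BMI1 held row 687 (10.9%), between ZER1 and ISL1. All 3 names were in the upper part of that table.

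Calls of the neighbouring rows differed little among the members. Of the 100 promoters within 50 rows of EZH2, SUZ12, RING1, RNF2, CBX2 or COMMD3-BMI1, all 100 were listed in both libraries in each case. This is near the general share at those rows. Of the 10 equal stretches of each table, those holding these names had 99.4 to 100% of promoters listed in both. Around CBX7, 93 of the 100 promoters were listed in both, and the other 7 were control-only. CBX7 was the member closest to the part of its table where calls were lost. Between 80 and 90% of the table, the stretch that holds CBX7, 84.9% of promoters were listed in both and 14.8% only with control siRNA. Between 90 and 100%, below CBX7, 28.8% were listed in both, 1.23% only with WDR5 siRNA-1, 20.9% only with control siRNA and 49.1% in neither. The median row of the N-Myc-binding members, 48.1% of the table length, was close to the 45.6% of all promoters of that table listed in both. The non-binding members CBX2 and RNF2 stood above the corresponding 23.9%.

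**Figure D2:**
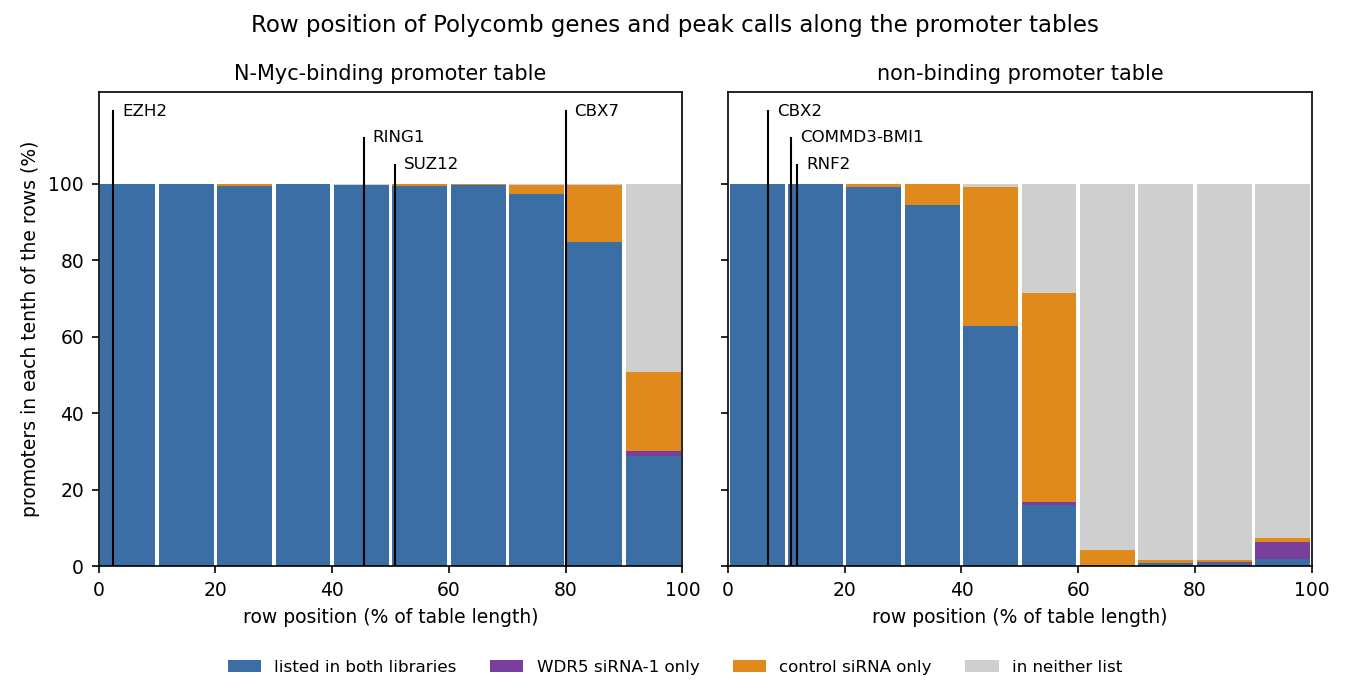
Peak calls (vertical axis, percent of promoters) in 10 equal stretches of rows (horizontal axis, percent of table length) of the N-Myc-binding and non-binding promoter tables, with black lines at the rows of the Polycomb genes. CBX7, at 80.0%, stands at the edge of the stretches with more control-only calls, and CBX2, RNF2 and COMMD3-BMI1 stand where all promoters were listed in both libraries.

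The other Polycomb genes and the targets followed the same order of rows. In the N-Myc-binding table, MBD6 and MTF2 (87.6% each) and OGT (89.9%) were listed in both and stood below CBX7. Other subunit genes listed in both reached as far down the non-binding table as L3MBTL2, at row 3092 (48.8%). Between 40 and 50% of that table, where it lies, 62.9% of promoters were listed in both and 36.3% were control-only. The subunit and partner genes with a row but in neither list stood lower. They were PHC2 at 76.8%, BCORL1 at 78.4% and SCML4 at 94.2% of the non-binding table, and CBX5 at 94.6% of the N-Myc-binding table. Among the targets in the non-binding table, the 6 listed in both lay at 0.742 to 43.0% of the table length. The control-only targets PAX3, OLIG2, PAX2 and BMP2 lay between 50.4 and 58.6%, and LHX2 at 57.5%. The 9 in neither list lay between 57.4 and 93.1%. Of the 10 equal stretches of that table, the one from 50 to 60% had the most control-only promoters, 54.5%. The control-only targets with a row in it thus lay where control-only calls were most frequent in general. Since the order may come from the same H3K4me3 data as the calls, it is no independent measure.

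The names next to each member in the control list, which follows genome order, were not all kept. Of the 18 names directly before or after the 9 members, 14 were listed in both and 4 only with control siRNA (22.2%, beside 13.5% of all control names). EZH1 lay between control-only names on both sides, BC047651 before it and RAMP2 and RAMP2-AS1 after it. RING1 was followed by HCG25, and RNF2 was preceded by FAM129A, both control-only. COMMD3-BMI1 likewise lay between LOC100130992 and SPAG6, which were control-only. EZH2 stood between CUL1 and PDIA4, SUZ12 between UTP6 and RHOT1, and EED between PICALM and C11orf73, all listed in both. Within 3 names of the members, 12 of 54 were control-only (22.2%).

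**Figure D3:**
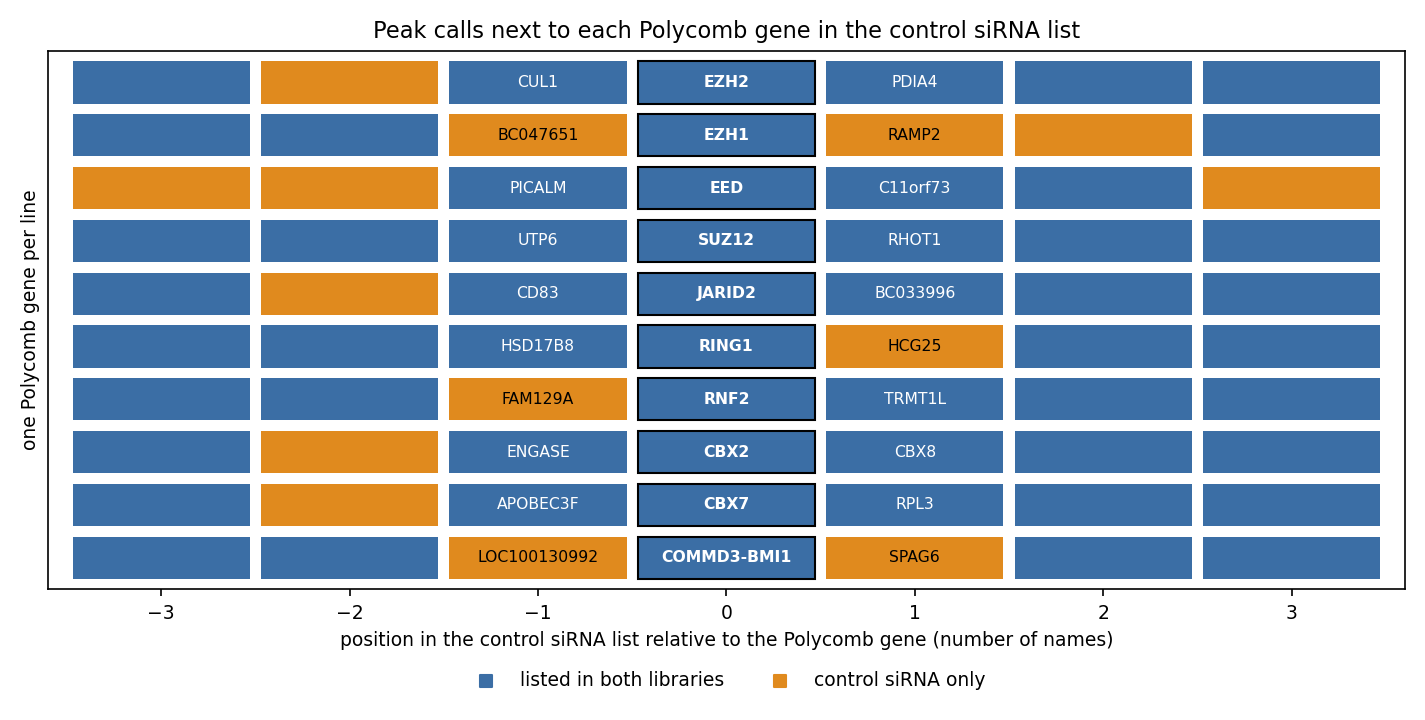
Peak calls of the 3 names before and the 3 names after each Polycomb gene (centre, outlined) in the control siRNA list, with horizontal position counted in names and 1 gene per line. The adjacent names are written out. All 10 central names were listed in both libraries, and EZH1 and COMMD3-BMI1 have control-only names on both sides.

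Some CBX genes stood near one another in the control list. CBX2 and CBX8 were consecutive in the control list, and both were listed in both libraries and were in the non-binding table. Their hg19 TSSs were 18.9 kb apart, so each had its own window. CBX6 was listed 3 names before CBX7 but had no row in either promoter table, so the distance between them was not measured. The nearest other TSS of the promoter tables was 7.7 kb from RING1 (SLC39A7), 144.3 kb from EZH2 (PDIA4), 167.1 kb from CBX7 (RPL3), 205.4 kb from SUZ12 (RHOT1) and 271.9 kb from RNF2 (IVNS1ABP). Every one of these neighbours was listed in both. Among RefSeq starts in GRCh38, of the 9 members with a promoter sequence, only JARID2 had another gene's start within 2 kb. These were JARID2-DT at 695 bases and JARID2-AS1 at 159 bases, both on the opposite strand and in neither list by name. A peak at JARID2 cannot be told apart from one at these starts.

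Member promoters were rich in G, C and CpG. RefSeq gave 12 promoter windows for 9 of the 10 members, each running from 250 bases before the start to 50 after it, and CBX2 had no entry. Their median content of G and C was 73.8%, beside 58.7% over all 35114 RefSeq windows and 65.7% over windows of genes listed in both libraries. The median ratio of observed to expected CpG was 1.01, beside 0.579 over all windows and 0.836 over those listed in both. Windows of control-only genes had medians of 64.7% and 0.739. The 96 windows of other Polycomb subunit and partner genes had medians of 67.0% and 0.866, nearer to those of genes listed in both. The second BMI1 window had 91.0% G and C, more than 99.99% of all windows. EED had the lowest value of the members, 52.3%, which is below the median of all windows. The 2 windows of EZH2 had 74.7 and 77.0%. Windows of the 17 target genes found in RefSeq had medians of 64.0% and 0.673.

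**Figure D4:**
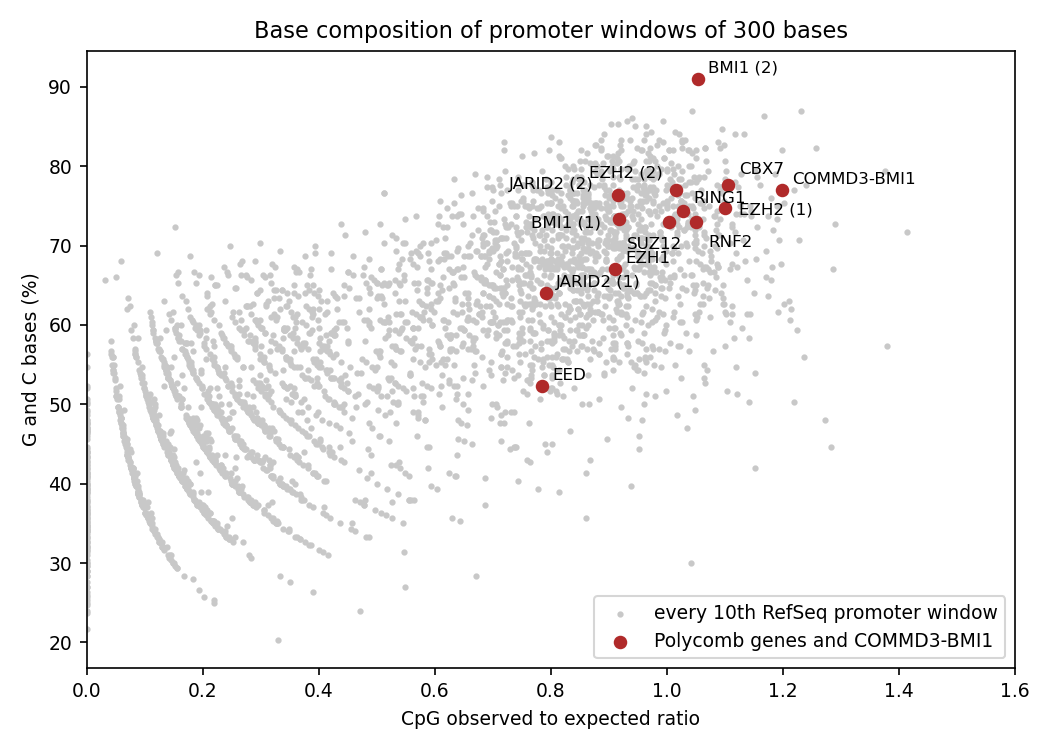
G and C content (vertical axis, percent) against the ratio of observed to expected CpG (horizontal axis) for promoter windows of 300 bases. Red points are windows of the Polycomb genes and COMMD3-BMI1, with the window number in brackets where a gene has 2, and grey points are every 10th RefSeq window. EED, at 52.3%, lies lowest of the red points, and the second BMI1 window, at 91.0%, lies highest.

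Motif matches in the member windows were few. CACGTG was searched on both strands and occurred in 7.26% of all RefSeq windows. It occurred in 13.9% of windows of N-Myc-binding genes and in 5.88% of those of non-binding genes. Among the other Polycomb subunit and partner genes it was in 15.6% of windows. None of the 5 windows of EZH2, SUZ12, RING1 and CBX7, the N-Myc-binding members, held it. COMMD3-BMI1, which is no member and has a non-binding promoter, held it starting 8 bases before its start, and BMI1, which has no N-Myc class, held it starting 70 bases before its first start, as capitalised in the sequences above. The looser E-box CANNTG, of which CACGTG is a form, occurred in 4 of the 12 member windows. It occurred in 68.7% of all windows and in 59.3% of those of genes listed in both libraries. The share was 56.25% in windows of the other Polycomb subunit and partner genes. A match is a run of letters and no evidence of binding, and no match says only that the letters are not in the window.

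The E2F forms TTTCCCGC and TTTGGCGC occurred in 2 of the 12 member windows (16.7%), beside 2.27% of all windows. The share was 3.66% in windows of genes listed in both libraries and 4.31% in those of N-Myc-binding genes. In windows of the other Polycomb subunit and partner genes it was 5.21%. With so few windows the difference was not tested. TTTGGCGC began 1 base after the first EZH2 start, and TTTCCCGC began 189 bases before the SUZ12 start. E2F factors are known to control genes of the cell cycle, and EZH2 and EED are known E2F targets. The EED window held neither form. The ETS motif CCGGAAG occurred in 10.3% of all windows and in 18.0% of those of genes listed in both libraries. It was in 17.7% of windows of the other Polycomb subunit and partner genes, but in none of the 12 member windows. The NRF1 motif (1.24% of all windows) and the YY1 motif (0.849%) were in none either. YY1, the factor whose fly counterpart recruits Polycomb complexes, was itself an N-Myc-binding promoter at row 32, listed in both.

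Markers of the line were checked once. Of the adrenergic neuroblastoma markers looked up, GATA3, HAND2, ISL1 and PHOX2A had a peak call in each library, while DBH and TH were control-only. None of 7 markers of blood, epithelium, liver, muscle and endothelium was listed. Sequencing depth and immunoprecipitation yield also move the number of calls, are unknown here, and their part in the calls was not tested.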

How the data were processed

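H3K4me3 was profiled by chromatin immunoprecipitation and sequencing in BE(2)-C cells, with 6 libraries (2 H3K4me3, 2 IgG, 2 input), 1 of each kind per siRNA. Per the submitters' processing notes, the tools included BWA 0.7.12 and bedtools and the build was hg19. No label or header names the peak caller, its threshold or its control library. The deposited columns hold gene names and TSS intervals 1 bp wide, in no measured unit, so depth is unknown. Values of the IgG and input libraries were not used here.

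Each distinct name of a list was counted once and classed as listed in both, only with WDR5 siRNA-1, only with control siRNA or in neither. Promoters were joined by gene name, so a peak at another TSS of a gene can count for it. The second coordinate of an interval was taken as the TSS. Members were matched by symbol. C17orf96 was used for EPOP. RefSeq tables (GRCh38.p14) gave names, starts and promoter sequence only. Shares carry exact Clopper-Pearson intervals. Scripts were tested on simulated lists and sequences. The text names all members, the other Polycomb genes listed in a single library, examples of each role, and the names next to each member in the lists. The members and lists were chosen with earlier results of these data known. Results on a few genes are not reported here. A planned comparison of the proteins was not run, because no protein sequences were used here. Computation used Python 3.11.15, pandas 2.3.3, numpy 2.4.6, scipy 1.17.1 and matplotlib 3.10.9.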

Additional observations from a re-analysis of the deposited data

How the results depend on the processing

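No paired analysis was possible because each siRNA had 1 H3K4me3 library and no result comes from a test, and for the same reason no replicate could be left out. The count of members listed only with control siRNA was 0 with exact symbols, with RefSeq synonyms, with names on a single row and, chosen after seeing the data, with COMMD3-BMI1 counted for BMI1. The share among the 67 other subunit genes was 0% with current symbols, without genes shared with other complexes and with genes in a promoter table as the denominator. Each of these settings only drops genes or changes the denominator, so a share of 0% could not have moved. The same holds for the members with names on a single row. The share was 6.76% with the target genes added to the 67 genes, chosen after seeing the data, because all 5 control-only genes are targets. Among the targets alone, control-only genes were 19.0% of those in a promoter table, with or without a control peak. They were 35.7% of targets with a control peak and names on a single row. Both settings were chosen after seeing the data. The 19.0% has another denominator than the main 33.3% of targets with a control peak, so these values cannot be compared. Over all control names the share was 13.5% by rows, 13.6% on single rows and 12.9% without accession-style, LOC, LINC and antisense names. With synonyms, 5 rather than 4 members were in the N-Myc-binding table, because BAP1, the symbol of another gene, is also a synonym of RNF2. The median row of the 6 members with one was 28.6% of the table length, 37.4% as a rank among promoters listed in both, and 11.8% with COMMD3-BMI1 counted for BMI1, chosen after seeing the data. Without depths, a gene missing from a list cannot be said to lack the mark.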
